A study of Mus musculus with 13 samples.

Results

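The genes described here belong to the red blood cell (erythroid) programme and to heme synthesis. They are Fam210b, Alas2, Slc4a1, Klf1, Gata1, Epor, Hba-a1 and Hbb-bt, which are 8 of the 9 symbols chosen. The remaining symbol, Ahsp, had no match in the name table and is not analysed here. The 8 genes are 8 of 48709 gene rows in each count table, and all 8 passed the filter on low counts, as did 17403 genes in all. They were chosen by their measured expression, since Fam210b and other erythroid genes were higher in the AAV-miR SOD1 group, and so their levels in that group are given as a description without a test. The comparison of the control groups with each other, and relations among the control libraries, were not used in the choice and are tested.

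RNA was sequenced from motoneurons of SOD1-G93A mice, which carry a mutant human SOD1 transgene and model amyotrophic lateral sclerosis. The AAV-miR SOD1 group (n = 4) received, into the cerebral ventricles on postnatal day 2, an adeno-associated virus that expresses an artificial microRNA against human SOD1 in astrocytes. The AAV-miR ctrl group (n = 5) received the control vector AAV-miR ctrl in the same way, and 4 littermates that were not injected form the non-injected group (n = 4). Every mouse of the 3 groups carried SOD1-G93A, so no healthy animals are compared. At 65 days of age, 500 motoneurons per mouse were cut by laser from cresyl violet-stained lumbar sections and pooled to give 1 library per mouse. The cord had been frozen together with its vertebrae, whose marrow normally forms blood cells. Tissue cut in this way can hold cells or RNA that lie on or beside the neurons, and in bulk RNA more cells of a type and more RNA per cell cannot be told apart.

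Red cell precursors make heme in their mitochondria for the globin chains of hemoglobin. Alas2, the erythroid 5-aminolevulinate synthase, catalyses the rate-limiting step, while its relative Alas1 serves heme synthesis in other tissues, neurons among them. Erythropoietin acts through its receptor Epor to keep the precursors alive, and the transcription factors Gata1 and Klf1 switch on the heme enzymes, the globins and membrane proteins such as Slc4a1 (band 3, the anion exchanger of the red cell). Fam210b is a mitochondrial membrane protein that promotes the supply of iron for heme in erythroid cells.

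The stretch of 250 bases before the RefSeq transcription start was examined because these genes moved together between libraries. In addition, many erythroid promoters carry GATAA, which contains the letters GATA bound by GATA factors, and CACCC, the core letters bound by Klf1. Neither motif contains the other. Windows were taken from RefSeq (GRCm38.p6) and matched 7 of the 8 genes, all but Slc4a1. GATAA, read on either strand as GATAA or TTATC, was present in 5 of the 7 windows and in 22.6% of 32851 windows of all genes. CACCC, read as CACCC or GGGTG, was present in 7 of 7 windows and in 52.0% of all windows, and both motifs were present in 5 of 7 against 10.1%. The windows of Alas2 (chrX:150547167-150547416, plus strand), Klf1 (chr8:84901732-84901981, plus strand) and Hbb-bt (chr7:103813924-103814173, minus strand) hold both motifs. That of Fam210b (chr2:172345327-172345576, plus strand) holds CACCC but not GATAA. These 4 are shown as the gene with the clearest separation of groups, the enzyme, the transcription factor and the globin, written 5′ to 3′ along the gene, with each motif in capitals.
Fam210b: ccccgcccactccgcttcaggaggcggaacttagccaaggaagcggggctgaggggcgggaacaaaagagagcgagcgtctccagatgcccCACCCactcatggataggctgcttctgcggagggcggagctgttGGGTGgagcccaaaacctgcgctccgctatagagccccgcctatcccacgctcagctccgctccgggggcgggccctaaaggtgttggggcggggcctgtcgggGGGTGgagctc
Alas2: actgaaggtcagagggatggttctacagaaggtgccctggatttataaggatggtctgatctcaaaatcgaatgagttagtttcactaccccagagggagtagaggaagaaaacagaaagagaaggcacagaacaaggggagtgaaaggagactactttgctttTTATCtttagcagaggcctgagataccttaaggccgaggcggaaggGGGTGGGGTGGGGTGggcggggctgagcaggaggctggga
Klf1: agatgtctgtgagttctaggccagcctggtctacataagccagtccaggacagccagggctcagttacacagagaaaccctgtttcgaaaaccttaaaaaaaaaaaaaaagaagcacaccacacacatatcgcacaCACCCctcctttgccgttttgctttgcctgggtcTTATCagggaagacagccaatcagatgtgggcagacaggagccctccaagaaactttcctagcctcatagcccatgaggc
Hbb-bt: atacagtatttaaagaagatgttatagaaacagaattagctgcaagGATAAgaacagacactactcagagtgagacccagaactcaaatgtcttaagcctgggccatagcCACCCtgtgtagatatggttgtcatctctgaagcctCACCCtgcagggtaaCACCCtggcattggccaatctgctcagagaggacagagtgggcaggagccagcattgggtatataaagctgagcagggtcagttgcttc
In Fam210b 3 CACCC matches are visible, 1 as CACCC and 2 as GGGTG. Alas2 has 3 GGGTG matches side by side near the RefSeq start and 1 TTATC farther upstream. Klf1 holds 1 match of each motif, and Hbb-bt has 3 CACCC matches and 1 GATAA. No match to GATAA was present in the windows of Fam210b or Gata1, which says only that these letters are absent from those windows. The shorter GATA does occur in both. Gene coordinates given further on are those of GENCODE, whose starts differ from those of RefSeq. Apart from that of Epor, each window therefore lies partly or wholly within the GENCODE span of its gene, and the 3 GGGTG matches of Alas2 and the last GGGTG match of Fam210b fall inside that span. A match is a description of letters and not a measured binding site.

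The counts assigned to genes gave depths of 13.9 to 37.4 megacounts per library. Depth was 13.9 to 23.1 megacounts in the 9 libraries numbered 1 to 4 and 29.7 to 37.4 megacounts in the 4 numbered 5 or 6. All 4 of the latter were controls, so that number and group cannot be told apart there. Column headers of 2 tables contradicted their labels: the library labelled AAV-miR ctrl replicate 3 and the library labelled non-injected replicate 3. The labels were followed. Alignments counted as not unique made up 51.1% to 56.8% of all in the AAV-miR SOD1 group, 44.6% to 53.8% in the AAV-miR ctrl group and 42.3% to 52.8% in the non-injected group. Motoneuron genes were detected in every library, with Chat, the acetylcholine-making enzyme, at 39.1 to 155 CPM (counts per megacount of library size, scaled by TMM). Their summed level over 6 genes was 523 to 1025 CPM in the AAV-miR SOD1 group, 732 to 2262 in the AAV-miR ctrl group and 905 to 2319 in the non-injected group.

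Fam210b (ENSMUSG00000027495, chr2:172345565-172355749, plus strand, GRCm38) was the only one of the 8 genes whose 4 AAV-miR SOD1 libraries all lay above all 9 control libraries. AAV-miR SOD1 replicates 1, 2, 3 and 4 had 124, 104, 70.9 and 56.7 CPM of Fam210b. AAV-miR ctrl replicates 1, 3, 4, 5 and 6 had 37.2, 30.3, 34.6, 19.6 and 41.5 CPM, and non-injected replicates 2, 3, 5 and 6 had 37.6, 20.4, 35.0 and 32.2 CPM. The lowest AAV-miR SOD1 library therefore stood above the highest control library, while the control groups overlapped throughout. Of all genes tested, 0.592% were separated from the 9 controls in this direction. The log2 fold change of Fam210b was 1.45 ± 0.27 (SE) against AAV-miR ctrl and 1.50 ± 0.29 (SE) against non-injected, or 2.73-fold and 2.84-fold. Within the libraries numbered 1 to 4 these log2 fold changes were 1.40 and 1.64. Because Fam210b was chosen for this contrast, no test is attached to it. A library's Fam210b level rested on 359 to 2780 counts.

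Alas2 (ENSMUSG00000025270, chrX:150547375-150570638, plus strand) showed higher levels in the AAV-miR SOD1 group with overlap. Its 4 AAV-miR SOD1 libraries, in the order of replicates 1 to 4, had 1070.2, 836, 349 and 693 CPM. The AAV-miR ctrl libraries 1, 3, 4, 5 and 6 had 718, 263, 214, 83.8 and 191 CPM of Alas2, and the non-injected libraries 2, 3, 5 and 6 had 365, 72.3, 224 and 202 CPM. Replicate 1 of AAV-miR ctrl and replicate 2 of non-injected reached into the AAV-miR SOD1 range, at levels above AAV-miR SOD1 replicate 3. The log2 fold change of Alas2 was 1.33 ± 0.55 (SE) against AAV-miR ctrl and 1.77 ± 0.60 (SE) against non-injected. Within the libraries numbered 1 to 4 it was 0.89 and 1.78. The gene overlaps Apex2 and Mir3620 on the other strand, and since the strand setting of the counting is not given in the sources used here, their reads may be mixed with those of Alas2.

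The globin genes gave the highest levels of the set. Hba-a1 (ENSMUSG00000069919, chr11:32283511-32284465, plus strand) encodes adult alpha globin, and Hbb-bt (ENSMUSG00000073940, chr7:103812524-103813996, minus strand) an adult beta globin. AAV-miR SOD1 libraries 1 to 4 had 9379, 7748, 3905 and 5578 CPM of Hbb-bt, against 4602, 3090.3, 2384, 579 and 1427 in AAV-miR ctrl libraries 1, 3, 4, 5 and 6. Non-injected libraries 2, 3, 5 and 6 had 3635, 999, 1355 and 881 CPM of Hbb-bt. For Hba-a1 the 4 AAV-miR SOD1 libraries ranged from 2882 to 6703 CPM, the AAV-miR ctrl libraries from 627 to 4128 and the non-injected libraries from 820.2 to 2832. Both globins lay above every non-injected library in all 4 AAV-miR SOD1 libraries, and both were crossed by AAV-miR ctrl replicate 1. The log2 fold change of Hbb-bt was 1.46 ± 0.55 (SE) against AAV-miR ctrl and 1.95 ± 0.60 (SE) against non-injected. That of Hba-a1 was 1.30 ± 0.50 (SE) and 1.76 ± 0.54 (SE). Within the libraries numbered 1 to 4, Hbb-bt had 1.00 and 1.55, and Hba-a1 had 0.91 and 1.50. Each has a near-identical copy, Hbb-bs and Hba-a2, and the tables list alignments at several places in a row of their own, outside the genes, so the split between copies is uncertain. The copies moved alike, with Hbb-bs at 1.37 ± 0.58 (SE) and 1.87 ± 0.63 (SE), and Hba-a2 at 1.22 ± 0.50 (SE) and 1.73 ± 0.54 (SE). The embryonic globins Hba-x, Hbb-bh1 and Hbb-y did not pass the filter, and their highest counts in a library were 5, 4 and 17.

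**Figure D1:**
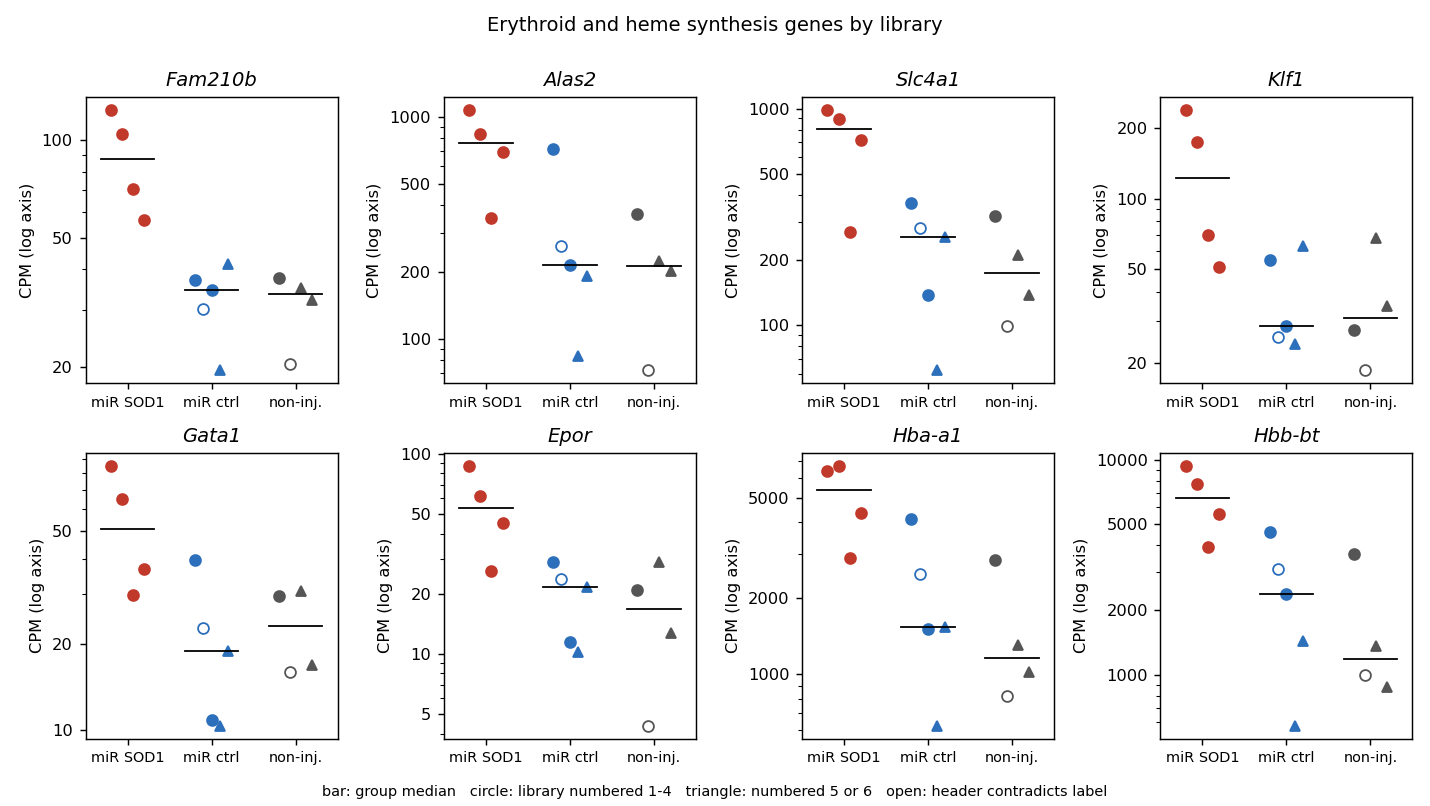
Levels of the 8 genes in each library (CPM, logarithmic axis), with 1 point per library, the bar at the group median, triangles for libraries numbered 5 or 6 and open circles for the 2 libraries whose headers contradict their labels. Fam210b is the panel in which the AAV-miR SOD1 points (56.7 to 124 CPM) all lie above the control points (19.6 to 41.5 CPM).

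Slc4a1 (ENSMUSG00000006574, chr11:102348824-102366203, minus strand) had 983, 894, 269 and 719 CPM in AAV-miR SOD1 libraries 1 to 4. It had 366, 282, 138, 62.2 and 255 CPM in AAV-miR ctrl libraries 1, 3, 4, 5 and 6, and 318, 99.8, 210.4 and 138 CPM in non-injected libraries 2, 3, 5 and 6. AAV-miR SOD1 replicate 3 lay below 3 control libraries, and the other 3 AAV-miR SOD1 libraries lay above all controls. Relative to AAV-miR ctrl its log2 fold change came to 1.70 ± 0.49 (SE), and relative to non-injected to 1.90 ± 0.53 (SE). Within the libraries numbered 1 to 4 it was 1.46 and 1.80.

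Among the 8 genes, Klf1 (ENSMUSG00000054191, chr8:84901928-84905291, plus strand) had the widest range within the AAV-miR SOD1 group. Klf1 had 238, 175, 70.2 and 51.2 CPM in AAV-miR SOD1 libraries 1 to 4, and 54.7, 25.7, 28.8, 24.0 and 62.6 CPM in AAV-miR ctrl libraries 1, 3, 4, 5 and 6. In non-injected libraries 2, 3, 5 and 6 it had 27.5, 18.6, 67.7 and 34.8 CPM. The highest AAV-miR SOD1 library exceeded the lowest 4.66-fold, and 3 control libraries lay above that lowest library. On the log2 scale Klf1 was higher by 1.77 ± 0.48 (SE) than in AAV-miR ctrl and by 1.84 ± 0.52 (SE) than in non-injected, and within the libraries numbered 1 to 4 by 1.89 and 2.57.

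Gata1 (ENSMUSG00000031162, chrX:7959260-7978071, minus strand) had 85.1, 65.0, 29.9 and 36.9 CPM in AAV-miR SOD1 libraries 1 to 4. AAV-miR ctrl libraries 1, 3, 4, 5 and 6 had 39.6, 22.8, 10.9, 10.4 and 18.9 CPM of Gata1, and non-injected libraries 2, 3, 5 and 6 had 29.7, 16.1, 30.9 and 16.9 CPM. The groups overlapped through non-injected replicate 5 and AAV-miR ctrl replicate 1, which lay above AAV-miR SOD1 replicate 3. On the log2 scale Gata1 was higher by 1.40 ± 0.42 (SE) than in AAV-miR ctrl and by 1.21 ± 0.44 (SE) than in non-injected, and within the libraries numbered 1 to 4 by 1.16 and 1.27.

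Epor (ENSMUSG00000006235, chr9:21958897-21963506, minus strand), the erythropoietin receptor, had 87.5, 61.8, 26.0 and 45.1 CPM in AAV-miR SOD1 libraries 1 to 4. In AAV-miR ctrl libraries 1, 3, 4, 5 and 6 it had 28.8, 23.8, 11.5, 10.3 and 21.6 CPM, and in non-injected libraries 2, 3, 5 and 6 it had 21.0, 4.38, 29.0 and 12.8 CPM. The overlap again came from non-injected replicate 5 and AAV-miR ctrl replicate 1, set against AAV-miR SOD1 replicate 3. On the log2 scale Epor was higher by 1.52 ± 0.48 (SE) than in AAV-miR ctrl and by 1.71 ± 0.52 (SE) than in non-injected, and within the libraries numbered 1 to 4 by 1.37 and 2.14. The library with 4.38 CPM, non-injected replicate 3, is one of those with a contradicting header and rested on 77 counts of Epor, the smallest count of any of the 8 genes.

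All 8 genes had a positive log2 fold change against both control groups, from 1.30 to 1.77 against AAV-miR ctrl and from 1.21 to 1.95 against non-injected. The medians were 1.45 and 1.77, beside -0.04 and -0.09 over all genes tested. This direction is what the choice of the genes used and is not evidence of its own, and both comparisons share the AAV-miR SOD1 libraries. Libraries without overlap were seen for 1 of 8 genes against AAV-miR ctrl (1.27% of all genes tested, in the same direction) and for 3 of 8 against non-injected (5.9% of all genes). A single library, AAV-miR ctrl replicate 1, held most of the overlap with its group: without it 6 of 8 genes were separated from AAV-miR ctrl, beside 8.23% of all genes. Without it 3 of 8 were separated from all remaining controls, beside 3.46%. That library was picked out after its values were seen. Leaving out a control library cannot lower such a count, so these counts are not evidence of their own. Leaving out the 2 libraries with contradicting headers left the counts at 1 and 3. The share of all genes was not computed for that set, which held fewer controls. In the libraries numbered 1 to 4, 6 of 8 genes lay above non-injected without overlap, beside 14.3% of all genes, against only 2 such non-injected libraries.

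The 2 control groups were then compared with each other, a contrast that the choice of genes did not use. No difference was detected for any of the 8 genes by edgeR's quasi-likelihood test (Benjamini-Hochberg adjusted p = 0.9999 for each). In this comparison 0 of 17403 genes passed an adjusted threshold of 0.05 with edgeR and 2 did with DESeq2. At an unadjusted p under 0.05 edgeR called 629 genes, or 3.61% (1.38% higher and 2.24% lower in AAV-miR ctrl), and 0 of the 8 were among them. The log2 fold change of AAV-miR ctrl over non-injected was 0.06 for Fam210b, with a 95% interval from -0.53 to 0.65. That interval is the narrowest of the 8. For Alas2 it was 0.45 (-0.74 to 1.64), for Hbb-bt 0.49 (-0.70 to 1.69) and for Hba-a1 0.47 (-0.62 to 1.55). For Slc4a1 it was 0.20 (-0.85 to 1.26), for Epor 0.19 (-0.84 to 1.23), for Klf1 0.07 (-0.96 to 1.11) and for Gata1 -0.19 (-1.08 to 0.70). The upper bounds of Alas2, Hba-a1 and Hbb-bt exceed the values by which AAV-miR SOD1 was above AAV-miR ctrl (1.33, 1.30 and 1.46), so a missed threshold does not show that the control groups were alike. Exchanging the 2 libraries with contradicting headers turned the sign of 7 of these 8 values, all but that of Gata1. Here and below, p-values measure only the spread between these libraries.

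The genes differed in how far they varied within a group. In the AAV-miR ctrl group the highest library exceeded the lowest 2.12-fold for Fam210b, 8.57-fold for Alas2, 7.94-fold for Hbb-bt, 6.59-fold for Hba-a1 and 5.88-fold for Slc4a1. In the non-injected group it did so 1.84-fold for Fam210b, 5.04-fold for Alas2, 4.13-fold for Hbb-bt and 6.61-fold for Epor. Within the AAV-miR SOD1 group the spread was 2.18-fold for Fam210b, 3.07-fold for Alas2 and 2.40-fold for Hbb-bt. Fam210b thus had the smallest spread of the 8 genes in each group, and the globins and Alas2 spread widely among controls. For the AAV-miR SOD1 group, replicate 1 was highest in every gene but Hba-a1, where replicate 2 was highest.

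Per kilobase of exon, the globins stood far above the rest. The group medians of Hbb-bt were 9478, 3391 and 1674 CPM per kilobase in AAV-miR SOD1, AAV-miR ctrl and non-injected, and those of Hba-a1 were 6598, 1902 and 1431. The libraries of these genes overlapped, although Hbb-bt was above Hba-a1 in 4 of 4, 5 of 5 and 3 of 4 libraries. Alas2 followed with medians of 318, 89.1 and 88.6 CPM per kilobase, below Hba-a1 in every library and without overlap in all 3 groups. Next in order came Slc4a1 (165, 52.2 and 35.7) and Klf1 (80.0, 18.8 and 20.3), each overlapping the gene above it, and Klf1 lay above Epor without overlap in AAV-miR ctrl alone. Epor (26.9, 10.8 and 8.48), Fam210b (24.2, 9.56 and 9.29) and Gata1 (20.9, 7.75 and 9.55) overlapped their neighbours in this order in each group, and the order of their medians differed in the non-injected group.

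Across the 9 control libraries, log2 CPM of Fam210b was related to that of the 7 other genes. Pearson's r was 0.83 with Slc4a1 (exact permutation p = 0.00518, adjusted p = 0.0362 over 7 relations) and Spearman's rho was 0.72 (adjusted p = 0.086). With Alas2 r was 0.79 (exact permutation p = 0.0139, adjusted p = 0.0399) and rho 0.52 (exact permutation p = 0.162, adjusted p = 0.162). The relation with Epor gave r = 0.77 (exact permutation p = 0.0171, adjusted p = 0.0399) and rho = 0.58 (adjusted p = 0.126). Klf1 gave r = 0.72 and Hba-a1 r = 0.71 (adjusted p = 0.0478 for both, from exact permutation p of 0.0316 and 0.0341), with rho of 0.73 and 0.72 (adjusted p = 0.086 for both). Hbb-bt gave r = 0.64 and Gata1 r = 0.56 (adjusted p = 0.0803 and 0.118, from exact permutation p of 0.0688 and 0.118), with rho of 0.62 and 0.63 (adjusted p = 0.12 for both). So 5 of 7 Pearson relations passed the adjusted threshold and 0 of 7 Spearman relations did. The share of all genes with a similar r was not computed. Some genes outside the pathway lists, such as Smpd4 and Mylk3 (0.93 for both), had a higher r with Fam210b over these libraries. The relations are therefore not shown to be particular to erythroid genes.

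These relations rested on few libraries. Leaving out the 2 control libraries farthest from the median of the other gene moved r to 0.36 for Slc4a1, 0.25 for Epor and 0.26 for Gata1. For Alas2 it stayed at 0.78, for Klf1 at 0.70, for Hba-a1 at 0.55 and for Hbb-bt at 0.56. The number of relations past the adjusted threshold fell to 0 when non-injected replicate 3, 5 or 6 or AAV-miR ctrl replicate 1 or 5 was left out, and to 3 when AAV-miR ctrl replicate 3 or 4 was. It was also 0 without both libraries whose headers contradict their labels. The 5 control libraries numbered 1 to 4 and the 4 numbered 5 or 6 are too few for a value of r within each.

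**Figure D2:**
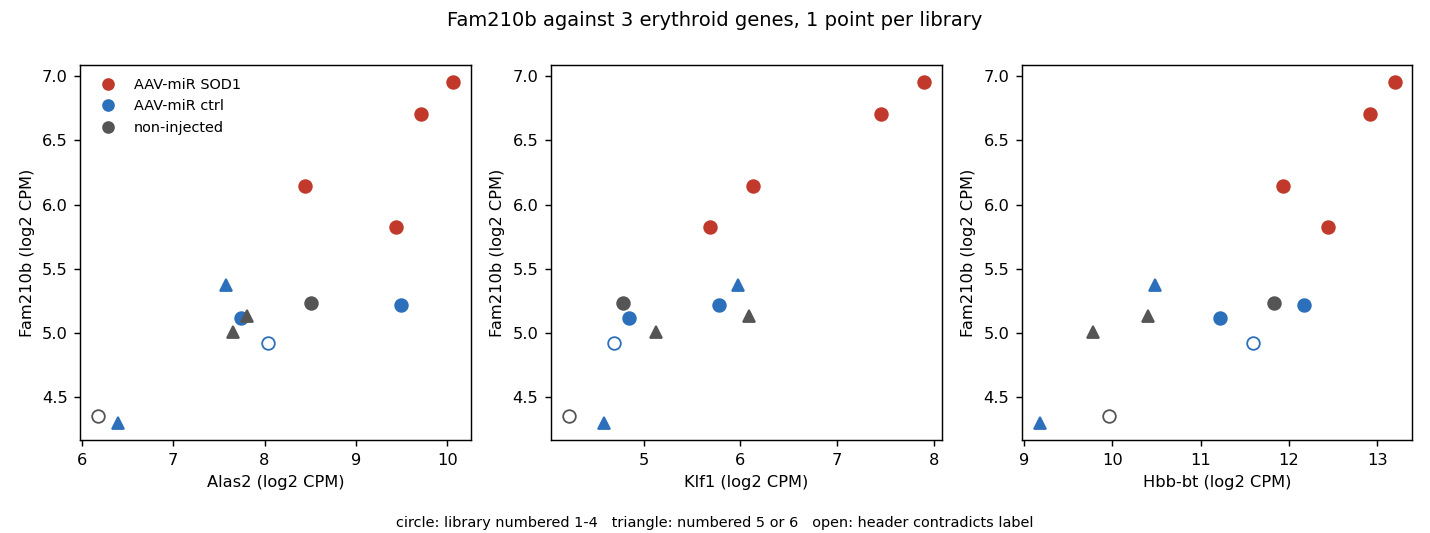
Log2 CPM of Fam210b (vertical axis) against log2 CPM of Alas2, Klf1 and Hbb-bt (horizontal axes), with 1 point per library, triangles for libraries numbered 5 or 6 and open circles for contradicting headers. Among the 9 control points r was 0.79, 0.72 and 0.64, and the points of non-injected replicate 3 and AAV-miR ctrl replicate 5 sit low at the left.

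Among all other genes tested, those most like Fam210b over the 13 libraries by Pearson's r of log2 CPM included C1qtnf12 (0.95), Rfc4 (0.93), Tal1 (0.93) and Ermap (0.93). Tal1 is an erythroid transcription factor and Ermap a red cell membrane protein, while Rfc4 loads the DNA replication clamp and C1qtnf12 is a secreted protein. Those most like Alas2 included Ube2l6 (0.99), Cdc25b (0.98), Bpgm (0.98) and Gm49342 (0.97). Bpgm makes the red cell metabolite that lowers the oxygen affinity of hemoglobin. Over the 9 control libraries alone the genes most like Alas2 were Tfdp2 (0.98), Tnfsf14 (0.98), Bpgm (0.98), Esm1 (0.97) and Ube2l6 (0.97). For Fam210b these were Smpd4 (0.93), Mylk3 (0.93), Clec9a (0.92), Havcr2 (0.91) and Slfn14 (0.91), none of them among its 5 over all libraries. These values are picked as the highest of 17395 genes and the libraries share depth and group, so they are a description. Clec9a and Havcr2 were near the floor, at no more than 1.90 and 1.81 CPM in any control library. Mylk3 had 0.447 to 9.06 CPM in the controls.

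The wider pathway was read from 77 other genes, of which 73 were tested, in lists written with earlier results of these data known. Against AAV-miR ctrl, 46 of 73 had an unadjusted p under 0.05 and a higher level in AAV-miR SOD1, where 5.99% of all genes tested did, and 0 of 73 had a lower level (8.54% of all genes). Against non-injected these were 46 higher (9.36% of all genes) and 1 lower (11.5% of all genes). By edgeR's quasi-likelihood test 0 of 17403 genes passed the adjusted threshold of 0.05 in either comparison, while 14.5% and 20.9% had an unadjusted p under 0.05. DESeq2 called 180 genes against AAV-miR ctrl and 1025 against non-injected. In the libraries numbered 1 to 4 the count of higher pathway genes against AAV-miR ctrl was 30. Over all genes 891 had an unadjusted p under 0.05 there in either direction, and the share that was higher is not given. The median log2 fold change of the 73 genes was 0.77 against AAV-miR ctrl and 0.85 against non-injected. AAV-miR ctrl and non-injected differed in 2 of 73 at an unadjusted p under 0.05, Slc25a28 and Aco1, both lower in AAV-miR ctrl (2.24% of all genes), with a median of 0.02 over the 73 genes. Both were picked out here after their values were seen.

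Of the heme enzymes other than Alas2, 7 of 8 were higher against AAV-miR ctrl and 6 of 8 against non-injected at an unadjusted p under 0.05. Over all genes these shares were 5.99% and 9.36%. Alad, which makes porphobilinogen, had log2 fold changes of 0.99 ± 0.25 (SE) against AAV-miR ctrl and 0.83 ± 0.26 (SE) against non-injected. Ppox, which oxidises protoporphyrinogen, had 1.13 ± 0.34 (SE) and 0.87 ± 0.36 (SE). The enzyme that was higher in neither comparison was Alas1, singled out after its values were seen, at -0.20 ± 0.23 (SE) and -0.13 ± 0.25 (SE), with 96.1 to 163 CPM in AAV-miR SOD1 and 104 to 193 CPM across the controls.

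Among 8 other genes of mitochondrial iron and heme transport, 4 were higher in each comparison at an unadjusted p under 0.05. Over all genes 5.99% were higher against AAV-miR ctrl and 9.36% against non-injected. By sign alone 5 of 8 were above 0 in each comparison, with medians of 0.26 and 0.33. Slc25a37 (mitoferrin-1), the erythroid iron importer of mitochondria, had 1.49 ± 0.42 (SE) against AAV-miR ctrl and 1.85 ± 0.45 (SE) against non-injected. Tmem14c, a porphyrin carrier, had 0.81 ± 0.25 (SE) and 0.79 ± 0.27 (SE), and Abcb10, which stabilises mitoferrin-1, had 1.63 ± 0.52 (SE) and 1.42 ± 0.55 (SE). Slc25a28 (mitoferrin-2), the importer of other tissues, had -0.08 ± 0.28 (SE) and -0.72 ± 0.30 (SE), with an unadjusted p under 0.05 in the latter. That value was -0.069 in the libraries numbered 1 to 4 and between -0.92 and -0.49 with 1 library left out, and the call was lost under several alternatives.

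Of 9 transcription factors other than Gata1 and Klf1, 6 were higher in each comparison at an unadjusted p under 0.05 (5.99% and 9.36% of all genes). Tal1 had 12.3 to 29.6 CPM in AAV-miR SOD1, 3.79 to 10.3 in AAV-miR ctrl and 4.16 to 7.98 in non-injected. All 4 AAV-miR SOD1 libraries were above all 9 controls, as in 0.592% of all genes, and its log2 fold change was 1.54 ± 0.35 (SE) and 1.80 ± 0.38 (SE), with edgeR adjusted p of 0.256 and 0.14. Lmo2, which bridges Tal1 and Gata1, had 1.55 ± 0.42 (SE) and 1.30 ± 0.45 (SE), and the repressor Gfi1b had 1.54 ± 0.44 (SE) and 1.30 ± 0.46 (SE). In erythropoietin signalling beside Epor, 1 of 7 genes was higher in each comparison at an unadjusted p under 0.05, beside 5.99% and 9.36% of all genes. By sign alone 5 and 4 of 7 were above 0, with medians of 0.44 and 0.10. The called gene was the survival factor Bcl2l1, at 0.68 ± 0.28 (SE) and 0.80 ± 0.30 (SE).

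Among red cell membrane genes other than Slc4a1, 12 of 16 were higher in each comparison at an unadjusted p under 0.05. Over all genes 5.99% were higher against AAV-miR ctrl and 9.36% against non-injected. Ermap, an erythroid surface protein, had 1.53 ± 0.38 (SE) and 1.55 ± 0.40 (SE). The skeleton protein Epb41 had 0.94 ± 0.34 (SE) and 1.42 ± 0.37 (SE), and the blood group protein Rhd had 1.75 ± 0.47 (SE) and 1.62 ± 0.50 (SE). At the same threshold 10 of 11 late erythroid genes were higher in each comparison, beside the same shares of all genes. Their summed level was 2418 to 5279 CPM in AAV-miR SOD1, 1300.3 to 2385 in AAV-miR ctrl and 1342 to 2185 in non-injected, so that the lowest AAV-miR SOD1 library stood just above the highest control. The carbonic anhydrases Car1 and Car2 had 1.73 ± 0.41 (SE) and 1.36 ± 0.37 (SE) against AAV-miR ctrl, and 1.72 ± 0.44 (SE) and 1.60 ± 0.40 (SE) against non-injected. Blvrb, a biliverdin reductase abundant in red cells, had 0.84 ± 0.22 (SE) and 0.85 ± 0.24 (SE).

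Iron handling genes, many of which are used by all cells, were higher at an unadjusted p under 0.05 in 4 of 12 cases against AAV-miR ctrl (5.99% of all genes) and 5 of 12 against non-injected (9.36% of all genes). By sign alone 11 of 12 were above 0 in each comparison, with medians of 0.39 and 0.38. The transferrin receptor Tfrc had 0.77 ± 0.24 (SE) and 0.92 ± 0.25 (SE), its relative Tfr2 had 1.20 ± 0.42 (SE) and 1.31 ± 0.45 (SE), and Eif2ak1, the heme-regulated kinase, had 0.69 ± 0.28 (SE) and 0.62 ± 0.30 (SE).

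**Figure D3:**
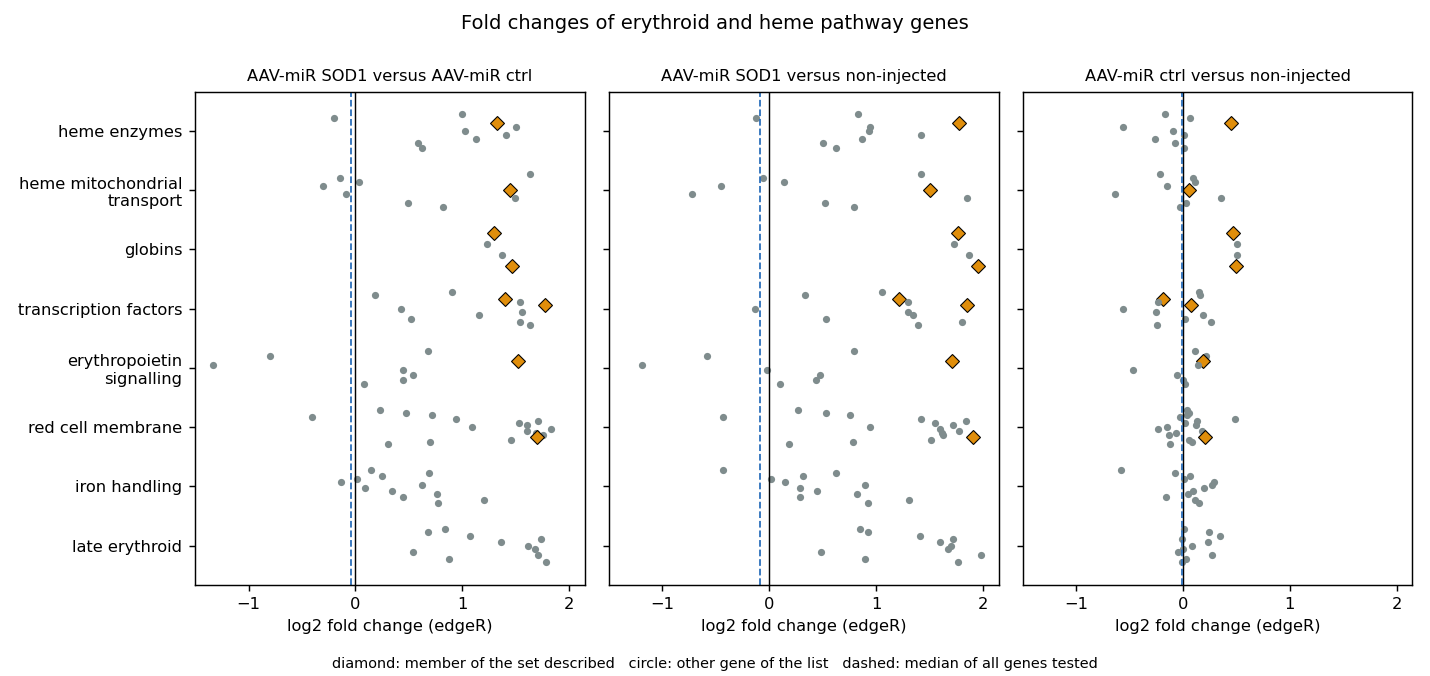
Log2 fold change (edgeR, horizontal axis) of each gene by list in the 3 comparisons, with orange diamonds for the 8 genes described first and grey circles for the other genes of each list. In both AAV-miR SOD1 panels most points lie right of the dashed median of all genes (-0.04 and -0.09), and in the panel of the control groups they gather around 0.

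The composition of the RNA relative to the beta globin Hbb-bt was then compared, per 1000 Hbb-bt counts of the same library. Klf1 stood at 39.5 to 50.0 in the 4 control libraries numbered 5 or 6 and at 7.56 to 25.4 in the 9 libraries numbered 1 to 4, of all groups. Epor was at 14.5 to 21.4 against 4.39 to 9.33, and Fam210b at 25.9 to 36.6 against 8.07 to 20.5. For these 3 genes, and for Hba-a1 (960.4 to 1161 against 635 to 897), the sets of libraries did not overlap. Gata1, Alas2 and Slc4a1 overlapped, at 13.2 to 22.8 against 4.56 to 16.1, at 134 to 229 against 72.4 to 156 and at 107 to 179 against 57.7 to 129. Within the libraries numbered 1 to 4, Klf1 was at 9.18 to 25.4 in AAV-miR SOD1 and 7.56 to 18.6 in controls, and Fam210b at 10.2 to 18.2 and 8.07 to 20.5. In that subset the groups overlapped for both genes. All these ratios share Hbb-bt as denominator, and the share of all genes without such overlap was not computed. In CPM, Hbb-bt was at 579 to 1427 in the libraries numbered 5 or 6 and at 999 to 4602 in controls numbered 1 to 4. In the same order Fam210b was at 19.6 to 41.5 and 20.4 to 37.6 CPM. Klf1 was at 24.0 to 67.7 and 18.6 to 54.7 CPM, and Epor at 10.3 to 29.0 and 4.38 to 28.8 CPM. Libraries numbered 5 or 6 were also the deepest and held no AAV-miR SOD1 library, and what sets their ratios apart was not tested.

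**Figure D4:**
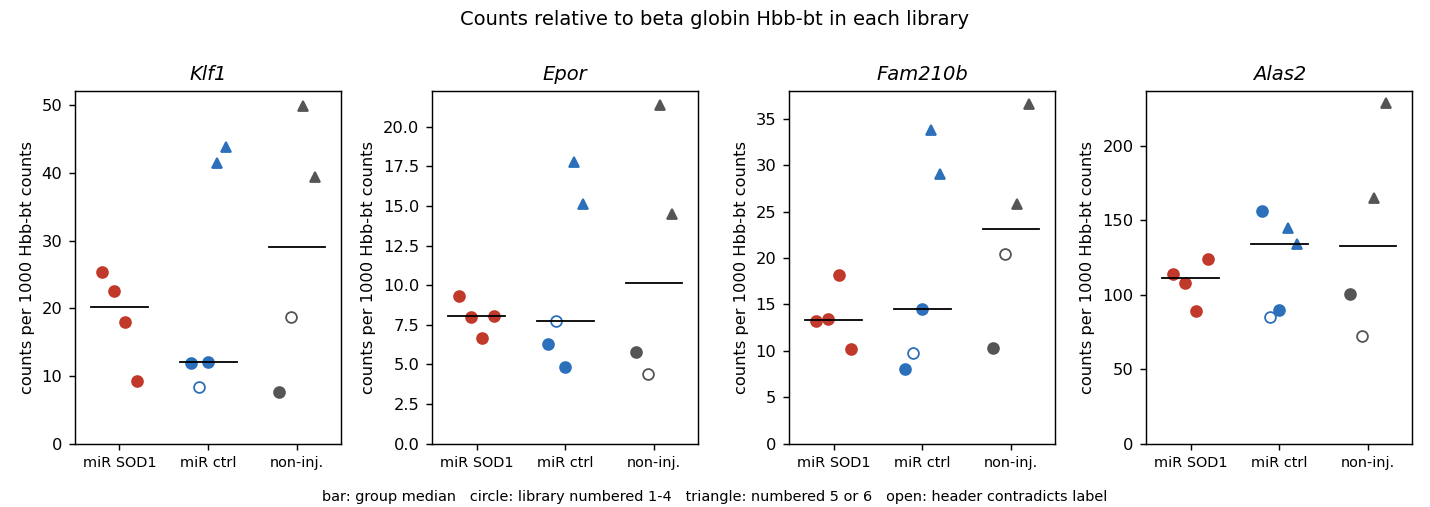
Counts of Klf1, Epor, Fam210b and Alas2 per 1000 counts of Hbb-bt in each library (linear axes from 0), with bars at group medians and triangles for libraries numbered 5 or 6. The triangles lie above all circles for Klf1 (39.5 to 50.0 against 7.56 to 25.4), Epor and Fam210b, and overlap them for Alas2.

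Marker lists of some other cell types moved with these genes and others did not, and motoneuron genes moved the other way. The summed level of the 8 genes was 7602 to 18344 CPM in AAV-miR SOD1, 1416 to 9974 in AAV-miR ctrl and 2051 to 7266 in non-injected. In the counts that follow, a gene is called at an unadjusted p under 0.05 by edgeR, first against AAV-miR ctrl and then against non-injected. Over all genes 5.99% and 9.36% were called higher in AAV-miR SOD1 and 8.54% and 11.5% lower. Motoneuron genes were called lower in 5 of 6 and 6 of 6 cases, with median log2 fold changes of -0.92 and -1.34. Neutrophil granule genes (12 genes), made in marrow, summed to 30534 to 84284 CPM in AAV-miR SOD1, 11120 to 70831 in AAV-miR ctrl and 15914 to 24772 in non-injected. Of these, 4 and 8 of 12 were called higher, 12 of 12 were above 0 in each comparison, and the medians were 0.93 and 1.22. AAV-miR ctrl replicate 1, the control library highest in Alas2 and both globins, was also the highest control in neutrophil genes. Megakaryocyte and platelet genes (8 genes) summed to 325 to 3096, 28.3 to 1379 and 218 to 1090 CPM in the same order of groups. Only 1 and 0 of 8 were called higher, but 8 of 8 were above 0 in each comparison, with medians of 1.10 and 1.28, beside 0.77 and 0.85 for the 73 other pathway genes. B cell precursor genes (10 genes) summed to 359 to 758, 235 to 590 and 92.6 to 355 CPM, with 0 and 4 of 10 called higher, 9 and 10 of 10 above 0 and medians of 0.41 and 1.07.

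Cell division genes (5 genes, Mki67 and Top2a among them) summed to 365 to 857 CPM in AAV-miR SOD1, 222 to 478 in AAV-miR ctrl and 184 to 345 in non-injected. In both comparisons 5 of 5 were called higher, with medians of 1.07 and 1.26. Bone and connective tissue genes (4 genes) summed to 6431 to 16044, 4783 to 25028 and 3323 to 17549 CPM. None of the 4 was called, 1 of 4 was above 0 against AAV-miR ctrl (median -0.20) and 4 of 4 were above 0 against non-injected (median 0.72). Endothelial genes (6 genes) summed to 115 to 243, 109 to 220 and 106 to 188 CPM, with 0 of 6 called, 4 and 5 of 6 above 0 and medians of 0.19 and 0.13. Microglia and macrophage genes (8 genes) summed to 407 to 541, 238 to 684 and 121 to 473 CPM, with 0 and 3 of 8 called higher, 8 of 8 above 0 in each comparison and medians of 0.35 and 0.72. Of 5 astrocyte and 5 oligodendrocyte genes 0 were called in either comparison, with medians of -0.19 and -0.034 for astrocytes and -0.73 and -0.38 for oligodendrocytes. No gene of these lists was at 0 in all libraries of a group. The part of these cell types in the levels of the erythroid genes was not tested.

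**Figure D5:**
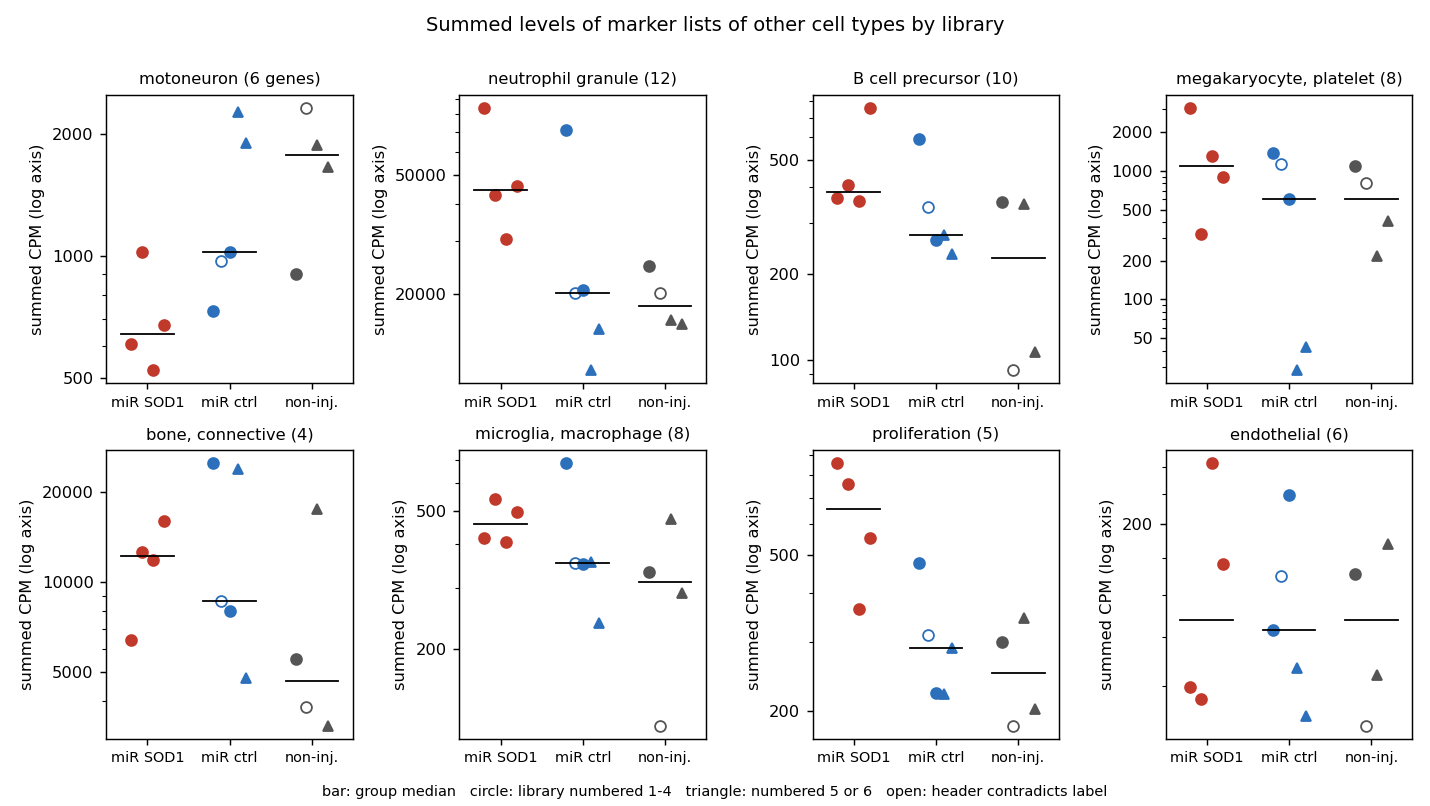
Summed CPM of marker lists of other cell types in each library (logarithmic axes), with bars at group medians and open circles for contradicting headers. The AAV-miR SOD1 points of the motoneuron panel lie low (523 to 1025 CPM) and overlap the controls. The highest point is an AAV-miR SOD1 library in the neutrophil, B cell precursor, megakaryocyte, cell division and endothelial panels. In the bone and microglia panels it is an AAV-miR ctrl library.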

How the data were processed

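Each of 13 libraries came as a table of counts per gene, deposited by the authors, with 48709 Ensembl gene rows and 5 summary rows. The submitters' processing notes name cutadapt 1.8, STAR 2.5.2b and HTSeq 0.6.1 and the build GRCm38. The strand setting is not given in the sources used here. Symbols and positions came from GENCODE M21 names (48349 identifiers, 99.986% of counts), and promoter windows from RefSeq. Summary rows, which name no gene and in which a read can count at each place it aligns, stayed out of library sizes and tests (47.0% to 61.6% of a table's total).

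Genes were filtered with edgeR's filterByExpr (minimum count 10, minimum total 15), leaving 17403, and libraries were scaled by TMM. CPM values were computed from these scaled sizes, and log2 CPM used a prior count of 2. Genes were tested with the quasi-likelihood F test of edgeR (edgeR 4.0.16, R 4.3.3) over all 13 libraries with 3 groups from the titles, adjusted by Benjamini-Hochberg at 0.05 (10 residual degrees of freedom, common biological coefficient of variation 0.47). SE is the log2 fold change divided by the root of F. Alternatives were RLE and upper quartile scaling, no filter and a filter of 1 CPM in 4 libraries, quality-weighted voom in limma 3.58.1, DESeq2 1.42.0, a prior count of 0.5 for the relations, a fit of only the libraries compared, a block for the replicate number, the exchange of the labels of the libraries with contradicting headers, both of those libraries left out, the libraries numbered 1 to 4 alone and each library left out in turn. Fits were tested on simulated counts. Relations used exact permutation of all pairings.

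The genes and lists were chosen with earlier results of these data known. Besides them, up to 3 genes of each list and direction with the smallest unadjusted p under 0.05, the copies Hba-a2 and Hbb-bs, and the 5 genes most like Fam210b and Alas2 are named, except that some items are not reported here.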

Additional observations from a re-analysis of the deposited data

Results flagged for a closer look

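In 5 of 90 sets of library values of a group, 1 library lay far from the others for the group's range. The sets were those of the 8 genes, of the copies Hba-a2 and Hbb-bs, and of the list sums. If the values were normally distributed, about 1 in 20 sets, or 4.5, would do so by chance. The globin sum was 19500 CPM in non-injected replicate 2, with the next library of that group at 7368. Neutrophil granule genes summed to 70831 CPM in AAV-miR ctrl replicate 1 (next 20596), and microglia and macrophage genes to 684 CPM in the same library (next 355). B cell precursor genes summed to 758 CPM in AAV-miR SOD1 replicate 4 (next 407), and bone and connective tissue genes to 17549 CPM in non-injected replicate 5 (next 5536). None of the 8 genes described first was among these by its own level. Genes were examined as log2 CPM and sums as CPM without a logarithm, so genes and sums are not compared on the same scale.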

How the results depend on the processing

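The 8 genes had a positive log2 fold change for AAV-miR SOD1 in 384 of 384 alternative values over both comparisons, from 0.89 (Alas2) to 2.71 (Hbb-bt). The genes were chosen for this direction and the alternatives reuse the same libraries, so this count is not evidence of its own. At an adjusted p under 0.05 DESeq2 called 180 genes for AAV-miR SOD1 over AAV-miR ctrl, 1025 for AAV-miR SOD1 over non-injected and 2 between the control groups, where edgeR called 0 in each. It called 11 and 15 of 22 named pathway genes in the first 2. Those 22 were named for the smallest unadjusted p in these same comparisons, so these counts follow largely from that choice. The counts at an unadjusted p under 0.05 (2529, 3635 and 629) were 3814 with limma-voom and 891 in libraries numbered 1 to 4 (against AAV-miR ctrl), 2258 with both header libraries left out (against non-injected), and 1601 with no filter (between controls). With 1 library left out they ranged from 1192 (without AAV-miR SOD1 replicate 1) to 3986 (without AAV-miR ctrl replicate 1), from 2431 to 4146, and from 516 to 1008 (without non-injected replicate 2). Against AAV-miR ctrl the count was also 1604 and 1591 without AAV-miR ctrl replicates 5 and 6.

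Other pathway genes that were higher numbered 30 against AAV-miR ctrl in libraries numbered 1 to 4, beside 891 of all genes in either direction. Lower ones numbered 1 against AAV-miR ctrl with the header exchange or with both libraries left out, where the reported count was 0. Against non-injected, where it was 1, they numbered 2 (limma-voom, both left out), 3 (header exchange) and 0 (groups alone, libraries numbered 1 to 4), and 0 to 3 with 1 library left out. Between the control groups (2 reported) they numbered 1 with RLE, upper quartile scaling, DESeq2 or the groups alone, 6 with the header exchange, 0 in libraries numbered 1 to 4 and 0 to 3 with 1 library left out. The relations of Fam210b past the adjusted threshold numbered 0 with both header libraries left out and 0 to 5 with 1 control left out.

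Deviations of libraries with the same replicate number correlated from -0.19 to 0.24 over 8 pairs. Pairs of different number were not computed as a reference, so these values cannot show whether the replicate number pairs the samples. With the number as a block the unadjusted counts were 1535 and 1441, the other pathway genes numbered 30 higher and 0 lower against non-injected and 0 between the control groups, and Slc25a28 had 0.13 against AAV-miR ctrl. That gene was also at 0.016 with both header libraries left out and between -0.28 and 0.080 with 1 library left out.

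Between the control groups the header exchange gave log2 fold changes of -0.14 (Fam210b), -0.040 (Alas2), -0.37 (Slc4a1), -0.044 (Klf1), -0.50 (Epor), -0.15 (Hba-a1) and -0.17 (Hbb-bt). With both libraries left out they were -0.053 (Fam210b), -0.10 (Slc4a1) and -0.18 (Epor). Klf1 was at -0.11 with limma-voom and Gata1 at 0.12 in libraries numbered 1 to 4. With 1 library left out the ranges were -0.10 to 0.20 (Fam210b), -0.20 to 0.87 (Alas2), -0.057 to 0.59 (Slc4a1), -0.15 to 0.56 (Klf1) and -0.12 to 0.61 (Epor). The cause of these changes was not tested.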
